A study of Mus musculus with 6 samples.

Results

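The miRNAs described here are known for their abundance or role in hepatocytes, the parenchymal cells of the liver, and the list is given by name, with earlier results of these data known: mmu-miR-122, mmu-miR-192, mmu-miR-194, mmu-miR-215, mmu-miR-101a, mmu-miR-101b and mmu-miR-802, each as the guide strand. Of these 7 miRNAs, 6 were measured among the 566 mouse miRNAs of the panel (599 probes with the viral ones), and mmu-miR-215 was not analysed here. The counts came from a NanoString assay, in which colour-coded probes capture single RNA molecules that are then counted without amplification, run on total RNA from fresh frozen mouse liver. The study asked which miRNAs were lower in *Apcfl/fl* than in *Apc+/+* liver, as part of a search for miRNAs that could bind an ultraconserved transcript. The 3 *Apcfl/fl* mice were homozygous for the hypomorphic *Apc580s* allele and had developed hepatocellular carcinoma (HCC) with Wnt/β-catenin activation. The 3 *Apc+/+* mice had normal livers without tumour. Both genotypes were on the C57Bl/6 background, no agent is given for either, and the age of the mice and the tumour content of each piece of liver are not given in the sources used here.

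miRNAs are short RNAs that guide Argonaute proteins to messenger RNAs, mainly through pairing of the seed near their 5′ end, and so lower the output of these messages. miR-122 is the dominant miRNA of hepatocytes, where it controls lipid metabolism and differentiation, and mice that lack it develop steatohepatitis and liver tumours. miR-192, miR-194 and miR-215 are made from shared primary transcripts that p53 can induce, miR-101 represses the Polycomb methyltransferase EZH2, and miR-802 is known for its part in the glucose metabolism of the liver. miR-192, miR-194 and miR-215 are also made in gut and kidney epithelium, and miR-101 in many cell types.

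The mature sequences below come from RefSeq (assembly GRCm38.p6), where 6 of the 7 miRNAs matched an entry, and are shown because seed and overall likeness decide which members can share targets or probes. Each is written 5′ to 3′ with the seed, bases 2 to 8, in capitals.
mmu-miR-192: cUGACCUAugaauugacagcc
mmu-miR-215: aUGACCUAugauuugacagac
mmu-miR-194: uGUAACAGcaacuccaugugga
mmu-miR-101a: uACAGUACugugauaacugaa
mmu-miR-101b: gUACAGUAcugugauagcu
mmu-miR-802: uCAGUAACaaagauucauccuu
mmu-miR-192 and mmu-miR-215 have the same seed and are identical at 18 of 21 bases. The entries of mmu-miR-101a and mmu-miR-101b are identical at 17 of the 18 bases that align, but the mmu-miR-101b entry begins 1 base earlier, so that its seed window is shifted by 1. How far the mmu-miR-192 probe also counts mmu-miR-215, or each miR-101 probe the other paralogue, was not tested, and the separate values of such close sequences are uncertain. mmu-miR-194 and mmu-miR-802 share their seeds with no other member. In the RefSeq gene order *Mir192* and *Mir194-2* are neighbours on chromosome 19, and *Mir215* and *Mir194-1* are neighbours on chromosome 1, so that mmu-miR-194 can come from either pair.

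Background was judged from the 33 probes for viral miRNAs, whose mean plus 2 SD gave a limit between 13.1 and 27.8 counts per liver. All 6 members lay above this limit in all 6 livers. The closest was mmu-miR-802 in *Apcfl/fl* liver 1, at 31.67 counts against a limit of 27.8. Its exact Poisson 95% interval was 21.9 to 45.2, which covers counting error only and reaches below the limit. The interval was taken from the deposited count, after a constant per probe had been subtracted, and so is approximate. mmu-miR-122 had the highest count of all mouse probes in *Apc+/+* livers 1 and 2 and the next highest in *Apc+/+* liver 3 and it ranked 4, 2 and 2 among the probes of *Apcfl/fl* livers 1 to 3. The 5 markers of muscle and brain lay near background, at 1 to 20 counts, with none above the limit in all livers and 1 above it in any. Their summed share was also lower in *Apcfl/fl* liver, at 0.014% to 0.030% against 0.031% to 0.066% in *Apc+/+* liver. With the TMM scaling described below, their summed counts were 15.1 to 25.1 in *Apcfl/fl* against 48.5 to 73.5 in *Apc+/+* liver. This difference near background was not tested.

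The deposited counts of mouse miRNAs summed to between 82942 and 133331 in each liver. Counts were scaled with edgeR's TMM method, which sets the bulk of the miRNAs equal between livers, and a normalized count is the rounded count divided by the scale factor of its liver. Scale factors were 0.816, 0.839 and 0.838 (*Apc+/+*) against 1.14, 0.972 and 1.57 (*Apcfl/fl*), so scaling raised the counts of the normal livers most and lowered those of *Apcfl/fl* livers 1 and 3. The genotypes were compared with edgeR's quasi-likelihood test over the 174 miRNAs that averaged at least 20 counts, with Benjamini-Hochberg adjustment. In addition, a two-sided exact permutation test was run on single values, which with 3 mice against 3 cannot go below p = 0.1. The labels number the livers of each genotype but say nothing of litters, batches or how each piece was taken, so p-values measure only the spread between these samples.

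In *Apcfl/fl* livers the mean TMM-normalized level of all 6 measured members was below that of the *Apc+/+* livers, from 1.31-fold for mmu-miR-192 to 3.26-fold for mmu-miR-122. The median log2 fold change of the members was -0.70, beside 0.01 over all 174 tested miRNAs, of which 86 had a lower fitted level. None of the members had an adjusted p-value under 0.05 in edgeR's test, as was so for all tested miRNAs (0 of 174, 0%), whose smallest adjusted p-value of 0.0559 was shared by 11. At an unadjusted p-value under 0.05, 5 of the 6 members were lower, against 19 of 174 tested miRNAs lower (10.9%) and 24 higher. With DESeq2 in place of edgeR, 2 members passed the adjusted threshold, mmu-miR-122 (adjusted p = 1.3e-05) and mmu-miR-802 (adjusted p = 0.026), both lower, against 9 lower of the 171 miRNAs to which DESeq2 gave an adjusted p-value (5.26%). The normalized counts of all *Apcfl/fl* livers lay below those of all *Apc+/+* livers for 6 of 6 members, against 32 of 174 tested miRNAs (18.4%). In whole liver tissue, fewer hepatocytes and less of a miRNA per hepatocyte cannot be told apart.

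**Figure D1:**
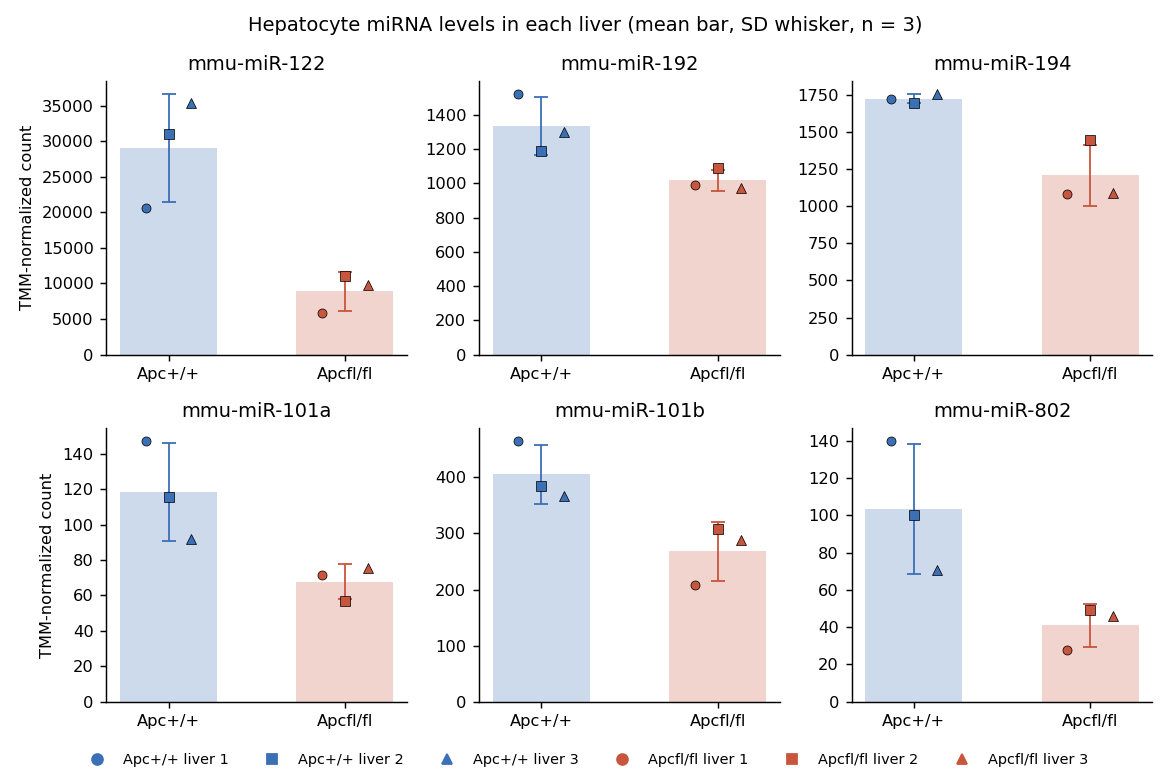
TMM-normalized counts of the 6 measured hepatocyte miRNAs, 1 panel each on its own linear axis from 0, with 1 point per liver (circle, square and triangle for livers 1, 2 and 3), bars for the genotype means and whiskers for the SD (n = 3). In every panel the 3 *Apcfl/fl* livers lie below the 3 *Apc+/+* livers, with the widest gap for mmu-miR-122 (11010 against 20586 for the nearest livers).

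mmu-miR-122 (MIMAT0000246) was counted 16793, 26023 and 29686 times in livers 1 to 3 of the *Apc+/+* mice, as deposited, against 6688, 10701 and 15416 times in those of the *Apcfl/fl* mice. Every *Apcfl/fl* liver was thus below every *Apc+/+* liver even before any scaling. After scaling, livers 1 to 3 held 20586, 31031 and 35419 (*Apc+/+*) against 5844, 11010 and 9832 (*Apcfl/fl*). The lowest of all was *Apcfl/fl* liver 1, and the *Apc+/+* liver closest to the tumours was liver 1. The genotype means of 29012 ± 7620 (SD, n = 3) and 8895 ± 2707 (SD, n = 3) left 30.7% of the *Apc+/+* mean in *Apcfl/fl* liver. This is a log2 fold change of -1.71 (standard error, SE, 0.34, 95% confidence interval -2.51 to -0.90), for which edgeR's quasi-likelihood test gave an adjusted p = 0.056 (Benjamini-Hochberg; unadjusted p = 0.0015). It was the second lowest of the 174 fold changes. The exact permutation test gave p = 0.1, the smallest p that the design allows. Against the *Apc+/+* mean, the log2 normalized level of the tumour livers was -2.27, -1.36 and -1.52, while single *Apc+/+* livers spread from -0.46 to 0.32. The adjusted p-value lay near the threshold and depended on the processing. It was under 0.05 in 11 of 17 alternatives, between 1.3e-05 with DESeq2 and 0.18 with no filter on low counts. In all 17 the level was lower in *Apcfl/fl* liver. The 11 include a fit that pairs livers by number, though the numbers were not taken as pairs. They also include a total count without mmu-miR-720 that was added after the data were seen.

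mmu-miR-192 (MIMAT0000517), which can halt the cell cycle downstream of p53, was scaled to counts of 1521, 1188 and 1298 (*Apc+/+* livers 1 to 3) against 990.9, 1089 and 973.3 (*Apcfl/fl*). The genotypes lay apart by a narrow margin, between *Apc+/+* liver 2 and *Apcfl/fl* liver 2. With a log2 fold change of -0.39 (SE 0.18, 95% confidence interval -0.82 to 0.03) it differed least among the members, and edgeR gave an adjusted p = 0.23 (unadjusted p = 0.065). The deposited counts overlapped, at 1241, 996 and 1088 (*Apc+/+*) against 1134, 1058 and 1526 (*Apcfl/fl*). A difference in mmu-miR-192 thus did not pass the test, and with no filter on low counts its direction turned, to a log2 fold change of 0.018.

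mmu-miR-194 (MIMAT0000224), made from the same transcripts as miR-192 and miR-215, varied little among normal livers with TMM scaling. The *Apc+/+* livers had 1725, 1696 and 1756 normalized counts, a coefficient of variation of 1.76%, against 17.2% among the *Apcfl/fl* livers with 1083, 1448 and 1091. As a share of the mouse miRNA counts its coefficient of variation among the *Apc+/+* livers was 21.2%, so that this evenness depended on the scaling. *Apcfl/fl* liver 2 stood between the other tumour livers and the normal ones. The log2 fold change of -0.52 (SE 0.19, 95% confidence interval -0.96 to -0.07) had an adjusted p = 0.15 by edgeR (unadjusted p = 0.030). Deposited counts overlapped, with a range of 1406.67 to 1471.67 (*Apc+/+*) inside that of 1239.67 to 1710.67 (*Apcfl/fl*).

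mmu-miR-101a (MIMAT0000133) reached normalized counts of 147.1, 115.7 and 91.87 (*Apc+/+* livers 1 to 3) against 71.65, 56.59 and 75.26 (*Apcfl/fl*). The *Apc+/+* livers differed more among themselves than the *Apcfl/fl* livers did, with *Apc+/+* liver 3 nearest to the tumours. On the log2 scale the fold change was -0.80 (SE 0.31, 95% confidence interval -1.52 to -0.08), with an adjusted p = 0.16 by edgeR (unadjusted p = 0.035). Its paralogue mmu-miR-101b (MIMAT0000616) stood at 464.6, 385.2 and 366.3 (*Apc+/+*) against 208, 307.6 and 288.9 (*Apcfl/fl*) normalized counts. Here *Apcfl/fl* liver 1 was the lowest, whereas for mmu-miR-101a it was *Apcfl/fl* liver 2. For mmu-miR-101b the log2 fold change of -0.60 (SE 0.23, 95% confidence interval -1.14 to -0.05) had an adjusted p = 0.16 by edgeR (unadjusted p = 0.037). Deposited counts of both paralogues overlapped between the genotypes, from 77.33 to 120.33 against 55.33 to 118.33 for mmu-miR-101a and from 307 to 379 against 238 to 453 for mmu-miR-101b.

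mmu-miR-802 (MIMAT0004188) was deposited with 113.67, 83.67 and 58.67 (*Apc+/+* livers 1 to 3) against 31.67, 47.67 and 71.67 (*Apcfl/fl*) counts. These overlapped, since *Apcfl/fl* liver 3 was above *Apc+/+* liver 3. After scaling they were 139.8, 100.2 and 70.39 against 27.96, 49.38 and 45.92, with all *Apcfl/fl* livers lower. The mean in *Apcfl/fl* liver was 39.7% of that in *Apc+/+* liver. Its log2 fold change of -1.33 (SE 0.40, 95% confidence interval -2.28 to -0.38) was the sixth lowest of all tested miRNAs, with an adjusted p = 0.088 by edgeR (unadjusted p = 0.013). Its counts were the lowest of the members, and among 17 alternatives its adjusted p-value was under 0.05 in 1, DESeq2. For each of the 6 members the exact permutation test on normalized log2 counts gave p = 0.1.

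How far the members other than mmu-miR-122 differed depended on the scaling. With the total mouse miRNA count as library size, the median over all tested miRNAs went from 0.01 to 0.45 on the log2 scale. Log2 fold changes were then -1.28 for mmu-miR-122 (adjusted p = 0.031 in edgeR's test), -0.01 for mmu-miR-192, -0.13 for mmu-miR-194, -0.43 for mmu-miR-101a, -0.23 for mmu-miR-101b and -1.01 for mmu-miR-802. Taken relative to this median, these values lay from -1.74 for mmu-miR-122 to -0.47 for mmu-miR-192. With TMM factors over all mouse miRNAs, without the filter on low counts, most members lay closer to the *Apc+/+* level, at -1.26 for mmu-miR-122, 0.018 for mmu-miR-192, -0.10 for mmu-miR-194, -0.37 for mmu-miR-101a, -0.16 for mmu-miR-101b and -0.89 for mmu-miR-802. Relative to the median of that fit (-0.08), mmu-miR-192 was at 0.10, mmu-miR-194 at -0.02, mmu-miR-101b at -0.09 and mmu-miR-101a at -0.30. The lower level of mmu-miR-194 and mmu-miR-101b was thus small under that setting. With the total count the livers of the genotypes lay apart for 1 of 6 members, mmu-miR-122, against 5 of 174 tested miRNAs lower in that way (2.87%). The same held for the deposited counts without any scaling (1 of 6 members, 2.87% of tested miRNAs). With the members left out of the total, mmu-miR-122 again was the 1 member that lay apart (5.75% of tested miRNAs). Without mmu-miR-720, a probe that took 15.7% to 33.0% of the counts, mmu-miR-122 and mmu-miR-802 did (2 of 6, against 5.17%). With size factors taken over the 100 highest miRNAs all 6 lay apart, as with TMM (18.4% of tested miRNAs).

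**Figure D2:**
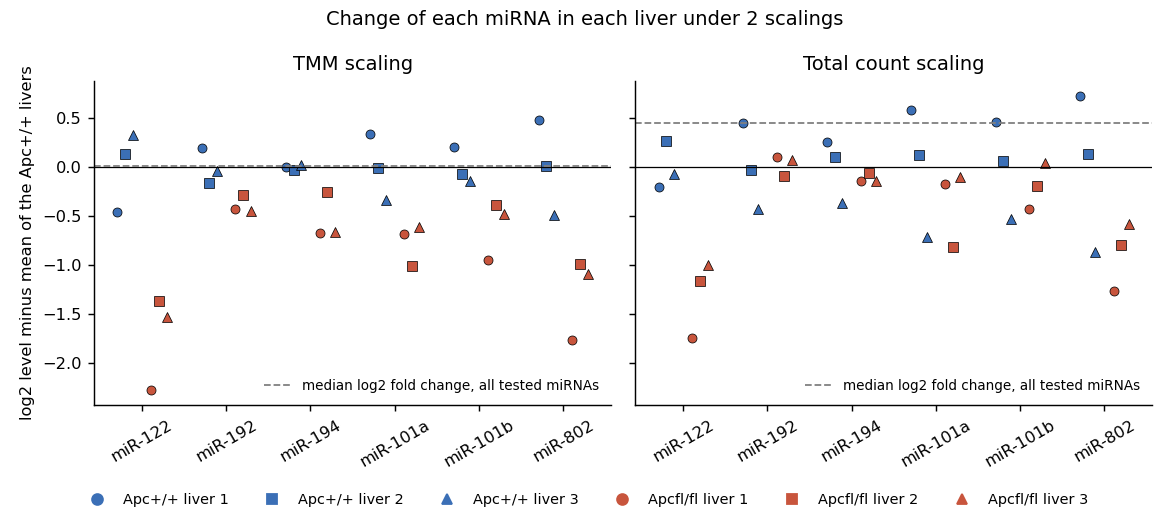
Log2 level of each member in each liver minus the mean of the 3 *Apc+/+* livers, with TMM scaling (left) and with the total mouse miRNA count as library size (right); colours and symbols give genotype and liver, and the dashed line is the median over all 174 tested miRNAs (0.01 and 0.45). With TMM all *Apcfl/fl* points lie below the *Apc+/+* points of the same miRNA, whereas with the total count this holds for mmu-miR-122, whose *Apcfl/fl* livers lie at -1.75, -1.16 and -1.001.

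A share of the mouse miRNA counts needs no scale factor, but it moves whenever an abundant miRNA moves. mmu-miR-122 took 20.2%, 28.0% and 22.3% of the counts of *Apc+/+* livers 1 to 3, against 6.94%, 10.4% and 11.6% for *Apcfl/fl*. All tumour livers were below all normal livers, and the Wilson 95% intervals, at most 0.288 percentage points to either side, were narrow beside the spread between mice. The means of 23.5% ± 4.01 (SD, n = 3) and 9.65% ± 2.43 (SD, n = 3) differed by -13.8 percentage points (two-sided exact permutation test, p = 0.1, 0.6 after Benjamini-Hochberg adjustment over the 6 shares). The other 5 members together took 3.11% ± 0.84 (*Apc+/+*, SD, n = 3) against 2.85% ± 0.07 (*Apcfl/fl*, SD, n = 3), and these shares overlapped. For mmu-miR-192 the mean shares were 1.13% and 1.12%, and for mmu-miR-194 they were 1.44% and 1.31%. mmu-miR-101b, mmu-miR-101a and mmu-miR-802 had shares of up to 0.457%, 0.145% and 0.137%, all overlapping between the genotypes. *Apc+/+* liver 3 had the lowest share of the *Apc+/+* livers for each of these 5 members, and it was the liver in which mmu-miR-720 took 33.0% of the counts. The part of mmu-miR-720 in these low shares was not tested beyond the scaling without it.

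**Figure D3:**
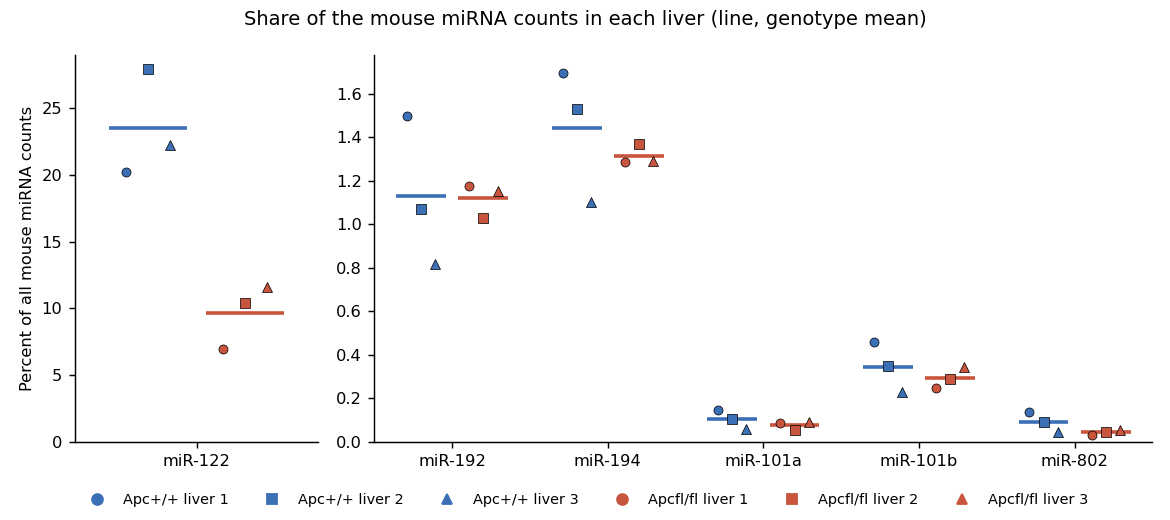
Percent of all mouse miRNA counts taken by mmu-miR-122 (left) and by each of the other 5 members (right, on a finer axis) in each liver, with lines at the genotype means. The mmu-miR-122 share lies between 20.2% and 28.0% in *Apc+/+* and between 6.94% and 11.6% in *Apcfl/fl* livers, while the shares of the other members overlap and *Apc+/+* liver 3 (triangle) is the lowest *Apc+/+* liver for each.

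Ratios of a pair of members inside the same liver do not depend on the scaling between livers, and 7 of 10 planned ratios could be computed, those with mmu-miR-215 being left out. Their change is compared here, not their size, since probes differ in how well they capture. The ratio of mmu-miR-122 to mmu-miR-192 was 13.5, 26.1 and 27.3 (*Apc+/+* livers 1 to 3) against 5.90, 10.1 and 10.1 (*Apcfl/fl*). No liver of one genotype overlapped the other, and the mean log2 ratio differed by -1.33 (SE 0.42), that is, to 39.7% of the *Apc+/+* ratio. For mmu-miR-122 over mmu-miR-194 the ratios were 11.9, 18.3 and 20.2 against 5.39, 7.61 and 9.01, also apart, with a log2 difference of -1.19 (SE 0.32). For mmu-miR-122 over mmu-miR-101b they were 44.3, 80.6 and 96.7 against 28.1, 35.8 and 34.0, with a log2 difference of -1.11 (SE 0.36). In these 3 ratios mmu-miR-122 was thus lower relative to the other member in every tumour liver (p = 0.1 each in the two-sided exact permutation test, 0.23 after Benjamini-Hochberg adjustment over 7 ratios). They share the counts of mmu-miR-122 and are not independent of each other.

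The remaining ratios overlapped between the genotypes. mmu-miR-122 over mmu-miR-101a differed by -0.94 on the log2 scale (SE 0.56, two-sided exact permutation test, p = 0.2). mmu-miR-122 over mmu-miR-802 was 148, 311 and 506 (*Apc+/+*) against 211, 224 and 215 (*Apcfl/fl*). The *Apcfl/fl* livers lay close together, inside the wide range of the *Apc+/+* livers, and the log2 difference of -0.40 (SE 0.52) did not exceed the spread between mice (p = 0.6, exact permutation test, two-sided). Without *Apc+/+* liver 3 it was 0.02, and without *Apc+/+* liver 1 it was -0.87. mmu-miR-192 over mmu-miR-194, the pair with shared transcripts, differed by 0.14 (SE 0.13, two-sided exact permutation test, p = 0.2). For mmu-miR-101a over mmu-miR-101b the log2 difference was -0.18 (SE 0.28, two-sided exact permutation test, p = 0.7), and it ran from -0.39 without *Apcfl/fl* liver 1 to 0.06 without *Apcfl/fl* liver 2.

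**Figure D4:**
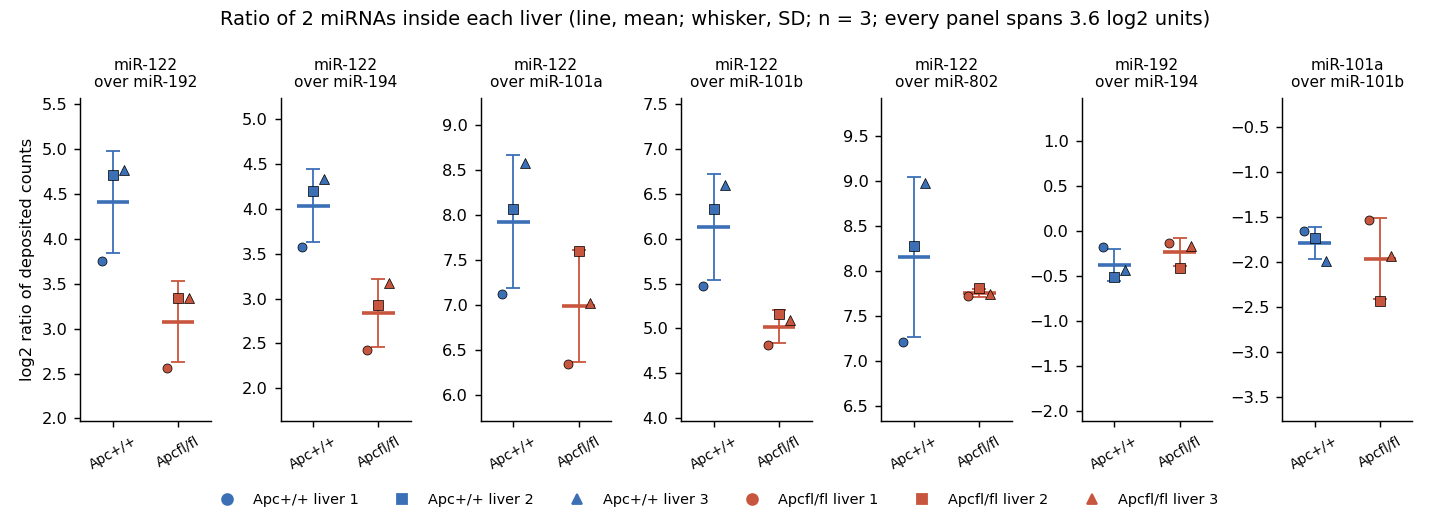
Log2 ratio of the deposited counts of a pair of members inside each liver, 1 panel per ratio, each spanning the same log2 range around its own centre, with lines for genotype means and whiskers for the SD (n = 3). The ratios of mmu-miR-122 to mmu-miR-192, mmu-miR-194 and mmu-miR-101b lie apart between the genotypes (log2 differences -1.33, -1.19 and -1.11), and the other 4 overlap.

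Among the *Apc+/+* livers the members did not share an order. *Apc+/+* liver 1 had the lowest normalized count of mmu-miR-122 and the highest of mmu-miR-192, mmu-miR-101a, mmu-miR-101b and mmu-miR-802. Among the *Apcfl/fl* livers, liver 1 was the lowest for mmu-miR-122, mmu-miR-194, mmu-miR-101b and mmu-miR-802. Over the 6 livers the Pearson correlation of normalized log2 counts between members ran from 0.63 for mmu-miR-194 with mmu-miR-101a to 0.98 for mmu-miR-101b with mmu-miR-802. These are descriptions over livers that lie apart by genotype and share their scale factors.

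Few panel miRNAs shared a seed with a member. mmu-miR-144, an erythroid miRNA, shares bases 2 to 7 with mmu-miR-101a, and it also contains bases 2 to 8 of the shifted mmu-miR-101b entry. Its counts of 246, 173 and 234 (*Apc+/+*) against 197, 616 and 335 (*Apcfl/fl*) overlapped, with a log2 fold change of 0.37 (SE 0.50) and an adjusted p = 0.70 by edgeR. mmu-miR-582-5p, which shares bases 2 to 7 of the shifted mmu-miR-101b entry, was above the background limit in 2 of 6 livers and was under the count minimum.

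Other miRNAs abundant in liver were set beside the members, 9 of 9 of them tested. The fitted level in *Apcfl/fl* liver was lower for 8 and higher for 1, beside 86 of 174 tested miRNAs with a lower one. In edgeR's test 0 passed the adjusted threshold. At an unadjusted p-value under 0.05, 2 were lower (10.9% of tested miRNAs) and 0 higher (24 of 174 tested miRNAs). The median log2 fold change was -0.14 with TMM, and it was 0.22 with the total count, where that over all tested miRNAs was 0.45. mmu-miR-148a, which represses the DNA methyltransferase DNMT1, stood at a log2 fold change of -1.31 (SE 0.21), with an adjusted p = 0.056 by edgeR. For mmu-miR-30c it was -0.85 (SE 0.30), with an adjusted p = 0.14 by edgeR. mmu-miR-193 was at -0.59 (SE 0.39), with an adjusted p = 0.37 by edgeR. These 3 of 9 lay apart between the genotypes, lower in all *Apcfl/fl* livers, against 18.4% of tested miRNAs. mmu-miR-193b (-0.33), mmu-miR-22 (-0.14), mmu-miR-26a (-0.14), mmu-miR-378 (-0.12), mmu-miR-365 (-0.07) and mmu-miR-30a (0.01) overlapped between the genotypes.

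Markers of other liver cells were examined because their share could move with the members. The 6 leucocyte markers summed to 0.218% to 0.429% of the counts in *Apc+/+* and 0.401% to 1.02% in *Apcfl/fl* liver. mmu-miR-155 reached the count minimum only through the *Apcfl/fl* livers, so nothing is drawn from its direction or p-value. Among the others tested, mmu-miR-223, mmu-miR-146a and mmu-miR-142-3p had a higher fitted level and mmu-miR-150 a lower one. Over all tested miRNAs, 86 of 174 had a lower one. In edgeR's test mmu-miR-223 was higher at an unadjusted p-value under 0.05, as were 24 of 174 tested miRNAs. The summed share and these 24 include mmu-miR-155. mmu-miR-223, a myeloid miRNA, was higher in all *Apcfl/fl* livers (log2 fold change 1.43, with an adjusted p = 0.072 by edgeR), as were 14.9% of tested miRNAs with TMM. mmu-miR-142-5p was listed at 1, the floor, in all livers. mmu-miR-155 stood at 1 in all *Apc+/+* livers and between 1 and 78.33 counts among the *Apcfl/fl* livers, above the limit in 2 of them, and mmu-miR-146a (0.69), mmu-miR-142-3p (0.12) and mmu-miR-150 (-0.11, log2 fold changes) overlapped between the genotypes. The 5 stromal markers summed to 0.722% to 1.15% in *Apc+/+* and 0.372% to 0.833% in *Apcfl/fl* liver. A lower fitted level was found for 4 of 4 tested, beside 86 of all 174 tested miRNAs. Their median log2 fold change with TMM was -0.92, beside -0.70 for the members and 0.01 over all tested miRNAs. At an unadjusted p-value under 0.05 in edgeR's test 2 of the 4 were lower, against 10.9% of tested miRNAs. The genotypes lay apart for 2 of the 4, lower in *Apcfl/fl* liver, against 18.4% of tested miRNAs. The 3 erythroid markers took 0.750% to 0.964% against 0.918% to 4.18%, and the 2 endothelial ones 2.19% to 3.64% against 2.69% to 4.08%. With TMM scaling the fitted level was higher for 3 of 3 erythroid markers and lower for 2 of 2 endothelial ones, beside 86 of 174 tested miRNAs lower. The genotypes overlapped for all 3 erythroid markers. The endothelial mmu-miR-126-5p stood at -0.46 on the log2 scale (SE 0.21, with an adjusted p = 0.23 by edgeR). Its genotypes lay apart, lower in *Apcfl/fl* liver, as for 18.4% of tested miRNAs. mmu-miR-126-3p, at -0.23 (SE 0.18), overlapped between the genotypes. The 5 markers of biliary and other epithelial cells took at most 0.196% in any liver, with 0 above the limit in all livers. The part of these cells in the lower levels of the hepatocyte miRNAs was not tested.

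**Figure D5:**
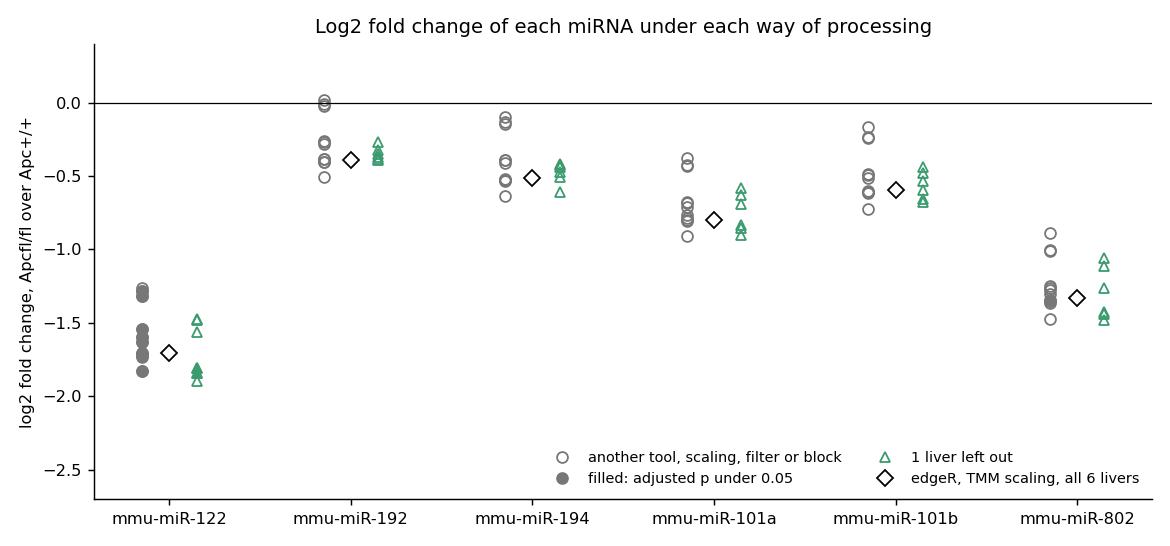
Log2 fold change (*Apcfl/fl* over *Apc+/+*) of each member with TMM scaling and all 6 livers (diamond), with another tool, scaling, filter or block (circles) and with 1 liver left out (triangles), with filled symbols where the adjusted p-value is under 0.05. mmu-miR-122 stays between -1.90 and -1.26 and has most of the filled symbols, whereas mmu-miR-192 reaches 0.018.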

How the data were processed

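NanoString miRNA counts from the livers of 3 *Apc+/+* and 3 *Apcfl/fl* mice were analysed, with groups taken from the labels. The authors deposited estimated counts per probe, not scaled between livers. In 584 of 584 probes with at least 2 values above 1, these values shared 1 decimal part, and 12.4% of values stood at 1, so a constant per probe had been subtracted and a floor set. The software for these steps is not given in the sources used here.

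Counts were rounded, and mouse miRNAs with a mean of at least 20 (174, holding 97.3% of counts) were tested with edgeR 4.0.16 in R 4.3.3 (TMM, quasi-likelihood, prior count 2, Benjamini-Hochberg). The design had assumed whole counts and negative controls. The limit was instead set by the 33 viral probes (mean plus 2 SD), since negative controls were not used here. Shares and ratios used deposited counts. The members and lists were chosen with earlier results of these data known. The text names the members, panel miRNAs sharing a seed, other liver-abundant miRNAs, cell type markers and, for each member, the 3 tested miRNAs most correlated with it. mmu-miR-720 was named after its values were seen. Other arms of the members' hairpins were not analysed here.

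Alternatives were DESeq2 1.42.0, limma 3.58.1, other size factors (top 100 miRNAs, total count, total or TMM without the members), no filter, a minimum of 60, viral probe subtraction, a replicate block and each liver left out. The total without mmu-miR-720 was added after the data were seen. Same-numbered livers did not deviate together (correlations -0.06, -0.06 and 0.12), so numbers were not taken as pairs. The procedure was tested on simulated data, in 10 runs. At an adjusted p-value under 0.05 edgeR called 7.66% of 2-fold and 46.1% of 4-fold changes, and 0.30% of unchanged miRNAs. A 2-fold change was thus mostly missed.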

Additional observations from a re-analysis of the deposited data

How the results depend on the processing

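Over 218 values recomputed under the alternatives, 200 kept their direction or lay within the spread between livers and kept their side of the threshold, 12 passed the threshold newly, 5 moved and 1 reversed. A fold change was among the 200 if its direction and side of the threshold held, whatever its size. With the total count mmu-miR-192 went from -0.39 to -0.01 and mmu-miR-194 from -0.52 to -0.13, and both were among the 200. Some share and ratio differences within the spread changed sign. The share difference of mmu-miR-192 was 0.175 percentage points without *Apc+/+* liver 1 and 0.036 without *Apcfl/fl* liver 2. That of mmu-miR-101b was 0.004 without *Apc+/+* liver 1. The log2 ratio differences of mmu-miR-122 over mmu-miR-802 and mmu-miR-101a over mmu-miR-101b also changed sign with 1 liver left out. The causes were not tested. The log2 fold change of mmu-miR-122 had an adjusted p-value under 0.05 with DESeq2 (-1.70), a top 100 size factor (-1.83), the total count (-1.28), the total without the members (-1.54), a count minimum of 60 (-1.60), limma (-1.72), viral probe subtraction (-1.63), the replicate block (-1.72, adjusted p = 0.021) and, chosen after seeing the data, the total without mmu-miR-720 (-1.32). Leaving out 1 liver gave -1.90 (without *Apc+/+* liver 1) to -1.47 (without *Apcfl/fl* liver 1), under 0.05 without *Apcfl/fl* liver 2 (-1.84) or 3 (-1.81). mmu-miR-802 passed with DESeq2 (-1.35), and mmu-miR-192 turned to 0.018 with no filter, where mmu-miR-194 (-0.10), mmu-miR-101b (-0.16) and mmu-miR-101a (-0.37) also lay nearer to 0. The replicate block changed no other call of a member. The share difference of mmu-miR-122 was -18.2 percentage points without mmu-miR-720, and that of mmu-miR-194 was -0.434 without mmu-miR-122. The median of the other liver-abundant miRNAs was 0.22 with the total count, and -0.39 (without *Apcfl/fl* liver 1) to -0.12 (without *Apc+/+* liver 2) with 1 liver left out. The precision was limited by 3 livers per genotype.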

Other observations

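Panel miRNAs outside the members were ranked by the likeness of their normalized log2 counts to each member over the 6 livers, as a description without a test, since the genotypes lie apart and scale factors are shared. mmu-miR-148a followed mmu-miR-122 most closely (Pearson r = 0.986), then mmu-miR-145, a miRNA of smooth muscle and stromal cells (r = 0.972), and mmu-let-7a (r = 0.965). For mmu-miR-192 the nearest were mmu-let-7f (r = 0.900), mmu-miR-29c (r = 0.892) and mmu-miR-23b (r = 0.863). mmu-miR-194 was most like mmu-miR-30c (r = 0.998), mmu-miR-148a (r = 0.932) and mmu-miR-338-3p (r = 0.894), and mmu-miR-101a was most like mmu-miR-203 (r = 0.988), mmu-miR-125b-5p (r = 0.935) and mmu-miR-107 (r = 0.917). mmu-let-7f was also the nearest to mmu-miR-101b (r = 0.980), before mmu-let-7d (r = 0.943) and mmu-miR-100 (r = 0.922), and to mmu-miR-802 (r = 0.949), before mmu-miR-100 (r = 0.908) and mmu-miR-23b (r = 0.889).

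The stromal mmu-miR-145 reached -1.72 on the log2 scale (SE 0.33, with an adjusted p = 0.056 by edgeR), beside -1.71 for mmu-miR-122. mmu-miR-143, from the same cluster of genes, was at -1.13 (SE 0.34, with an adjusted p = 0.087 by edgeR). The other stromal markers tested, mmu-miR-199a-5p at -0.72 and mmu-miR-199a-3p at -0.18, overlapped between the genotypes, and mmu-miR-214 was under the count minimum. The erythroid mmu-miR-451 had between 495 and 871 counts (*Apc+/+*) against 667 to 3593 (*Apcfl/fl*), at 1.18 on the log2 scale (SE 0.67, with an adjusted p = 0.33 by edgeR), and the genotypes overlapped.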
